A study of Mus musculus with 28 samples.

Results

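Immediate-early genes are the genes that a cell transcribes within minutes of a stimulus, from factors that are already present and need no new protein. A mitogen, a cytokine or a physical stress activates MAP kinases, these act on serum response factor with its ternary complex partners and on CREB at the promoters, and the transcripts that follow are short-lived. Most of their products are transcription factors that then set a later wave of genes, and in tissue work the family is also known for being induced while cells are being taken out of the tissue. The 10 genes described here are Fos, Fosb, Jun, Junb and Jund, which encode subunits of the AP-1 dimer, Egr1 and Egr2, which encode zinc finger factors, Atf3, which encodes a stress-induced bZIP factor, Ier2, which encodes a short nuclear protein, and Nr4a1, which encodes an orphan nuclear receptor. They were taken by symbol from a table of 25251 genes, and all 10 were present in it. The group was selected on its RPKM values in the mononuclear cell libraries, after an earlier look at these data had shown that it separated replicates 1 and 2 from replicates 3 and 4 there, so that separation is described below without a test.

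The libraries came from 8 to 10 week old mice on a C57 BL6 background that were either wild type (Flt3+/+) or homozygous for a knock-in of the FLT3 internal tandem duplication (Flt3ITD/ITD), an activating mutation of a receptor tyrosine kinase found in acute myeloid leukemia. The duplication sits in the germline at the mouse's own Flt3 locus, so every cell of these mice carries it, and the labels name no other allele or agent for either genotype. Endothelial cells (ECs, CD45-Ter119-CD31+) and mesenchymal stromal cells (MSCs, CD45-Ter119-CD31-CD166-Sca1+) were sorted from collagenase-digested bone at 100 cells per library, with 5 Flt3+/+ and 5 Flt3ITD/ITD libraries of each. Bone marrow mononuclear cells (MNCs) were sequenced at 200 cells per library, with 4 libraries per genotype, giving 28 libraries in all, each from 1 mouse. The labels do not say which EC, MSC and MNC libraries share a mouse.

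Fos lies on the plus strand of chromosome 12, at chr12:85473890-85477273 in GRCm38, and Fosb on the minus strand at chr7:19302696-19310051. Egr2 lies on the plus strand at chr10:67535475-67542188 and Nr4a1 on the plus strand at chr15:101254269-101274795. Jun (chr4:95049034-95052222, minus strand) shares exonic sequence with the antisense gene Junos, Junb (chr8:84974484-84978718, minus strand) with Prdx2, and Jund (chr8:70698949-70700616, plus strand) with Gm11175. The counting was not stated to use strand, so within the shared stretches the reads of these gene pairs cannot be told apart. Atf3 lies on the minus strand at chr1:191170296-191218039 and Ier2 on the minus strand at chr8:84661331-84662852, and neither shares an exon with another annotated gene.

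The 250 bases before the annotated start sites (RefSeq, GRCm38.p6) of 8 of the genes were searched on both strands for letters that the known regulators read. A window of Egr2 held a CArG box, the serum response factor motif, which 1.47% of all 32851 windows of that length hold. The CREB half-site TGACG stood in windows of 6 genes (Fos, Fosb, Junb, Egr2, Atf3 and Nr4a1), against 17.8% of all windows. TATAAA stood in the window of Fos, against 12.4% of all windows, and the AP-1 site TGANTCA stood in none of the 8 genes' windows, against 6.75%. These counts are of genes, any of whose windows could match, whereas the shares are of single windows. The 8 genes had 12 windows, so the 2 are not on the same footing. Sites farther from the start and variants of these letters were not searched. The window of Jund, chr8:70697489-70697738, ends before the span given for that gene above and does not adjoin it. The bases just before that span were therefore not searched. A match is a match of letters only, and matches of different motifs were counted separately where they overlapped. The windows of Fos, Fosb, Nr4a1 and 1 of the 5 annotated starts of Egr2 are shown because they hold these matches, which are in capitals, and because Fos and Fosb separated the MNC libraries widely (below) while Nr4a1 alone was called between ECs and MSCs. Each reads 5′ to 3′ on the strand of its gene, up to the base before the start, at chr12:85473640-85473889 (Fos), chr7:19310046-19310295 (Fosb), chr15:101266596-101266845 (Nr4a1) and chr10:67537619-67537868 (Egr2).
Fos: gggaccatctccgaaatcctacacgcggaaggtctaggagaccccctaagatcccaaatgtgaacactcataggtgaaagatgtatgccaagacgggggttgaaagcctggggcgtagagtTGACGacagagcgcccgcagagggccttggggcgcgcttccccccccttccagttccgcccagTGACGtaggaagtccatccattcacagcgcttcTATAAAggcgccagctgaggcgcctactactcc
Fosb: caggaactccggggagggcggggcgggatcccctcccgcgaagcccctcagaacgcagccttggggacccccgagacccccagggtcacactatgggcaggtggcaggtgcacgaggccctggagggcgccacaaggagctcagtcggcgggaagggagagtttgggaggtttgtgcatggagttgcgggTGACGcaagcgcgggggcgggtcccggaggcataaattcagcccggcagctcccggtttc
Nr4a1: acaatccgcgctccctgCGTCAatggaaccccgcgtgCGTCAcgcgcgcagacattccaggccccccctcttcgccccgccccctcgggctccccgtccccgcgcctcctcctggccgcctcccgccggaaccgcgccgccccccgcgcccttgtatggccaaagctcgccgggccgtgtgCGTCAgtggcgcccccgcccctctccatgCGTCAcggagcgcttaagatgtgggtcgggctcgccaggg
Egr2: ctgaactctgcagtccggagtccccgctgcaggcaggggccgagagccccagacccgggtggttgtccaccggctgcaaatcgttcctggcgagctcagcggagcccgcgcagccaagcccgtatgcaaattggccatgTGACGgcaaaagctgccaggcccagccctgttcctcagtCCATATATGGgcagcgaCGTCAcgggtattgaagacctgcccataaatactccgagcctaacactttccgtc
In the Fos window the TGACG closest to the start was 61 bases from it and TATAAA was 27 bases from it. The Egr2 window held the CArG box 62 bases from the start, with a TGACG match on either side of it, 50 and 106 bases from the start. The Nr4a1 window held 4 matches to TGACG on the opposite strand, between 35 and 228 bases from the start.

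Libraries held 6377013 to 33880743 counts, with 14406 to 17970 genes detected. Cdh5, the endothelial cadherin, ranged from 164.74 to 251.75 RPKM (read counts scaled to transcript length and library depth) in ECs and did not exceed 1.43 RPKM elsewhere. Pdgfra, a stromal receptor, ranged from 61.41 to 106.89 RPKM in MSCs and did not exceed 1.82 elsewhere. Of the 5 stromal genes listed, Pdgfrb, Col1a1 and Col3a1 were also higher in MSCs than in ECs. Ly6a, which encodes Sca1, went the other way, with a median of 4888 RPKM in ECs and 2887 in MSCs. Ptprc (CD45) ranged from 124.93 to 160.84 RPKM in MNCs. Leukocyte transcripts stood out most in Flt3ITD/ITD EC replicate 2 and Flt3ITD/ITD MSC replicate 5. The summed RPKM of 9 neutrophil genes was 30059 in the former, where the median of the EC libraries was 66.4. In the latter it was 6319, where the median of the MSC libraries was 54.3. The sum was also raised in Flt3+/+ EC replicate 1 (1321) and in Flt3ITD/ITD MSC replicate 3 (534). Leaving out any of these libraries, or any other single library, changed no call of an immediate-early gene.

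The immediate-early genes took up 0.182% to 0.619% of all counts in the 10 EC libraries and 0.300% to 0.842% in the 10 MSC libraries. In MNCs the share was 0.0546% to 0.0942% in the 4 libraries of replicates 1 and 2 and 0.00402% to 0.00700% in the 4 of replicates 3 and 4. So the lowest EC library lay above the highest MNC library, and the MNC libraries fell in 2 ranges that did not meet.

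Fos was the most abundant of the 10 genes in each population by median RPKM, a scale that corrects for transcript length. In ECs, Fos ranged from 586.22 to 1401.47 RPKM with a median of 884, and it stood between rank 54 and rank 162 of all 25251 genes. In MSCs it ranged from 913.62 to 2380.90 RPKM with a median of 1350, and between rank 27 and rank 104. Egr1 followed in both sorted populations, with 59.04 to 492.55 RPKM and a median of 317 in ECs and 128.38 to 485.44 RPKM and a median of 266 in MSCs. The EC and MSC ranges of both genes overlapped. Atf3, which is transcribed in response to many stresses, had medians of 163 RPKM in ECs and 248 in MSCs, Junb had 122 and 137, and Fosb had 89.6 and 109. The ranges of these neighbours in the order overlapped widely in each population, Atf3 from 18.19 to 231.15 RPKM and Junb from 19.92 to 223.58 RPKM in ECs. Jund and Egr2 were the lowest in both, with medians of 13.1 and 10.3 RPKM in ECs and 14.0 and 17.6 in MSCs. Jund was also among the steadiest, its highest value being 2.39 times its lowest in ECs and 2.26 times in MSCs, where Fosb spanned 8.38 and 20.6 times. Jund is the AP-1 subunit known for being present in resting cells.

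**Figure D1:**
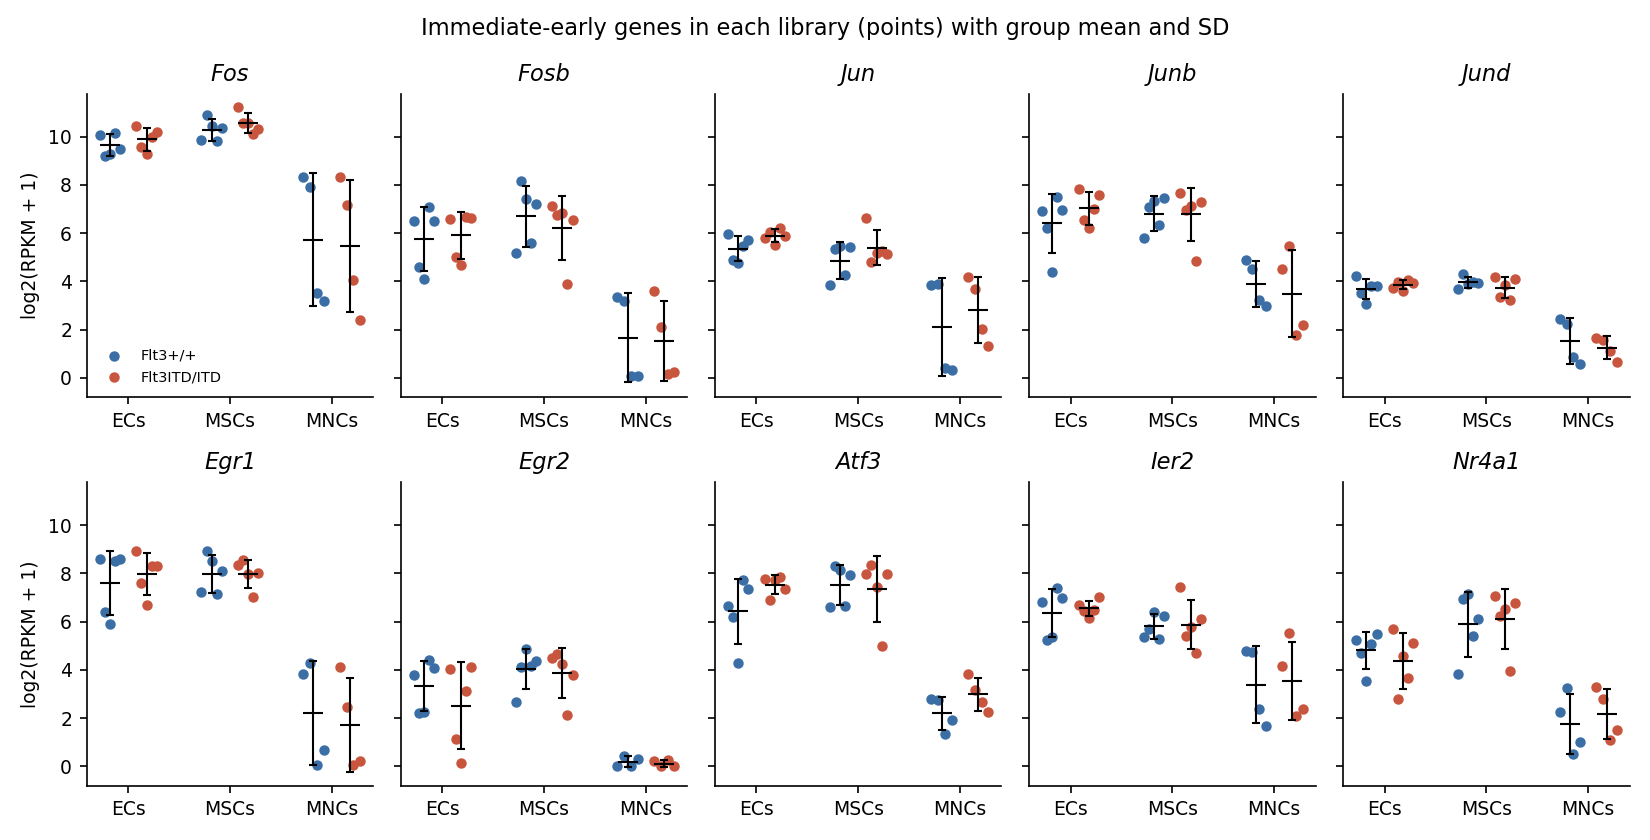
Each point is 1 library, with log2(RPKM + 1) on the y axis and the 3 populations on the x axis, Flt3+/+ in blue and Flt3ITD/ITD in red. Horizontal bars are group means and vertical bars are the SD over 5 libraries (ECs, MSCs) or 4 libraries (MNCs). The genotypes overlap in every panel, and most MNC groups split into a high and a low pair.

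Within a population the genes deviated together from library to library. Over the 10 EC libraries the 45 pairs of members had a median Pearson r of 0.70 on log2(RPKM + 1), from 0.01 to 0.95, and over the 10 MSC libraries a median of 0.69, from 0.34 to 0.94. These points share the library, its depth and its amplification, so the values are descriptive. Fosb and Egr1 followed the mean of the other members most closely in ECs (r = 0.97 and 0.96, n = 10), and Junb and Nr4a1 did so in MSCs (r = 0.95 for both, n = 10). In ECs, the same 3 libraries, Flt3+/+ replicates 2 and 3 and Flt3ITD/ITD replicate 3, were lowest for Fos, Fosb and Egr1. Their Egr1 values were 84.28, 59.04 and 101.24 RPKM, where the other 7 EC libraries held between 195.07 and 492.55 RPKM. In MSCs, Flt3+/+ replicates 1 and 4 and Flt3ITD/ITD replicate 4 were low, with Atf3 at 97.04, 98.38 and 30.63 RPKM, where the other 7 held between 172.09 and 324.49 RPKM. Both sets of low libraries held both genotypes. The 3 low EC libraries held 22871938, 14483259 and 29129322 counts and the 3 low MSC libraries 12300624, 29185077 and 25317136, within the ranges of the others in those populations. The part of depth in these deviations was not tested.

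**Figure D2:**
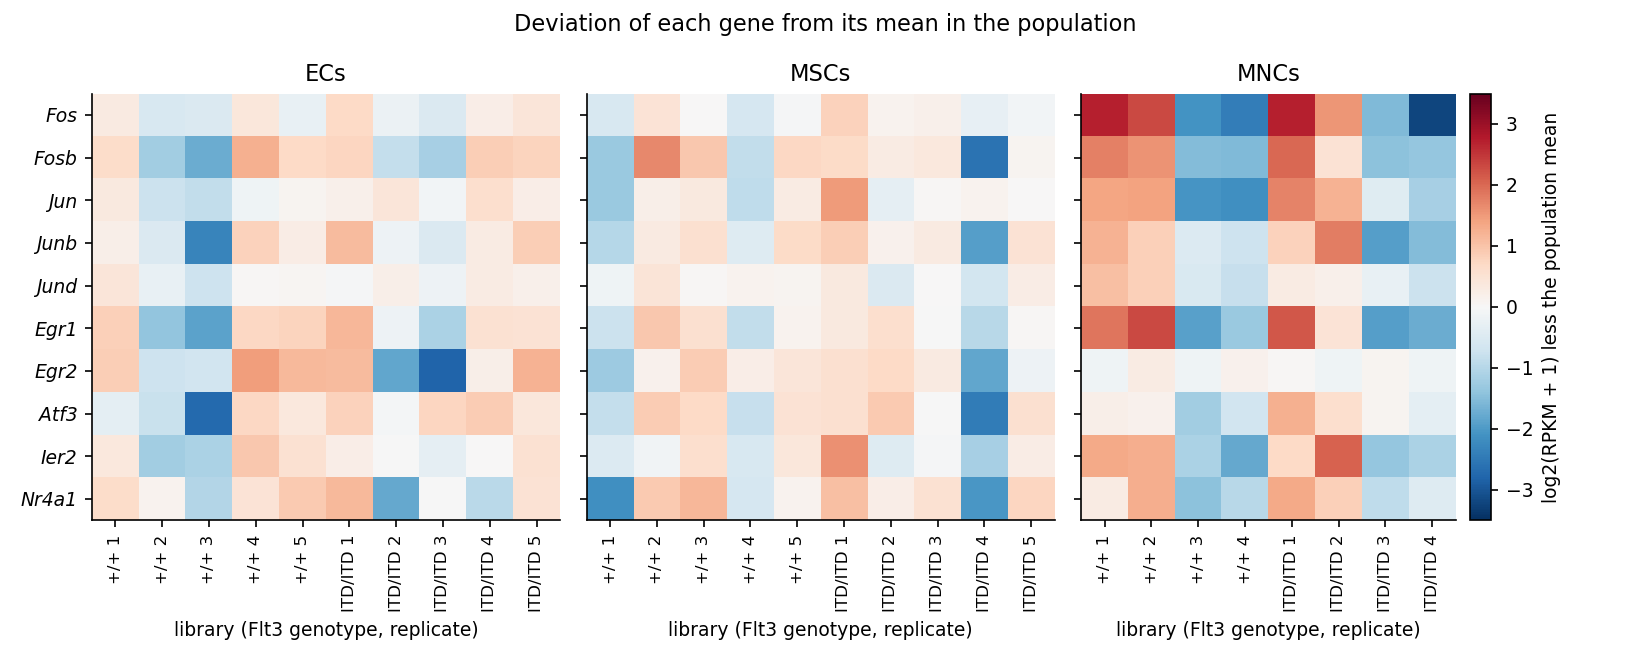
Each cell is 1 gene (row) in 1 library (column), coloured by log2(RPKM + 1) less the mean of that gene in the population. Columns that are blue or red from top to bottom are libraries in which most members were low or high together, among them Flt3+/+ EC replicate 3, Flt3ITD/ITD MSC replicate 4 and both sides of the MNC panel.

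Among genes outside the group, those most like the mean of the members were sought over the 10 libraries of each sorted population, at a mean RPKM of at least 1. In ECs they were Cnst, which encodes the connexin-binding protein consortin (r = 0.95), Dnajb1, which encodes an Hsp40 co-chaperone (r = 0.95), and Tbc1d24 (r = 0.94), out of 12467 genes. In MSCs they were Ube2c (r = 0.97), Ace, which encodes angiotensin-converting enzyme (r = 0.96), and Ifrd1 (r = 0.96), out of 12484 genes. Dnajb1 ranged from 7.70 to 149.93 RPKM in ECs, and Ube2c only up to 2.78 RPKM in MSCs, which is near the lower limit of the search. The highest of so many values is high by selection alone.

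The 9 immediate-early genes other than Egr2 were each higher in ECs than in MNCs and in MSCs than in MNCs, by an adjusted p under 0.1 in edgeR's quasi-likelihood test and at least a 2-fold difference in mean RPKM. Egr2 was called too, but it passed the count filter through the sorted populations only and so had to differ. The group was selected on its MNC values, which these tests also use. The calls and p-values against MNCs, here and below, are therefore descriptive. Of all 16897 genes tested, 23.1% were called higher and 22.0% lower in ECs than in MNCs, and 22.2% were called higher and 22.0% lower in MSCs than in MNCs. The comparison asks how far immediate-early transcripts differ between the bone-lining stroma and the blood cells beside it. The sort gate and the number of cells per library went with the population and cannot be told apart from it, and the sources used here leave unclear whether the MNCs were taken from digested bone. Nor can more cells of a type with a transcript be told apart from more of that RNA per cell in such bulk libraries.

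Of the AP-1 subunits, Fos was higher in ECs than in MNCs by a log2 fold change of 2.69 ± 0.64 (SE, adjusted p = 0.00118) and in MSCs than in MNCs by 3.58 ± 0.67 (adjusted p = 8.3e-05). Every EC and every MSC library lay above every MNC library, the highest of which held 322.67 RPKM. Fosb differed more, by 4.004 ± 0.94 in ECs and 4.93 ± 0.99 in MSCs, again with no overlap. Jun, Junb and Jund were higher by 2.64 ± 0.60, 2.72 ± 0.53 and 2.71 ± 0.35 in ECs and by 2.48 ± 0.59, 3.02 ± 0.53 and 3.03 ± 0.36 in MSCs. Jun overlapped MNCs in 1 MSC library (Flt3+/+ replicate 1, 13.33 RPKM) and Junb in 1 EC and 1 MSC library.

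Egr1, a direct target of the ERK cascade, was higher by 5.28 ± 0.95 in ECs (adjusted p = 6.6e-05) and 5.56 ± 0.97 in MSCs (adjusted p = 3.7e-05). Its lowest value in a sorted library was 59.04 RPKM and its highest in MNCs 18.26 RPKM. The other zinc finger gene, Egr2, was close to the floor in MNCs, where 4 of the 8 libraries held no read and the highest value was 0.36 RPKM, so its fitted log2 fold changes of 6.22 ± 1.02 in ECs and 7.27 ± 1.06 in MSCs depend on the prior count. Flt3ITD/ITD EC replicate 3 held only 0.10 RPKM of Egr2, within the MNC range. Atf3 was higher by 4.599 ± 0.48 in ECs and 5.35 ± 0.50 in MSCs, without overlap, and had the smallest adjusted p of the 10 genes in both comparisons (2.1e-08 and 2.7e-09).

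Nr4a1 was higher by 2.73 ± 0.58 in ECs (adjusted p = 0.000444), where 1 library lay within the MNC range, and by 4.53 ± 0.64 in MSCs (adjusted p = 2.3e-06), where none did. Ier2 had the lowest log2 fold change in both comparisons, 2.49 ± 0.53 in ECs and 2.17 ± 0.52 in MSCs. Its MNC values reached 45.37 RPKM, above 2 of the 10 EC and 4 of the 10 MSC libraries. In all, 6 genes in ECs and 7 in MSCs had every library above every MNC library, where 6.13% and 6.23% of all 25251 genes did. The 7 include Egr2, which passed the count filter through the sorted populations only. The shares count every gene, with those hardly detected anywhere, and not only the 16897 tested. They may therefore be lower than shares of the tested genes would be. The log2 fold changes of Fos were 1.74 in ECs and 2.64 in MSCs against the MNC libraries of replicates 1 and 2 alone, an alternative chosen after the data were seen, and 6.33 and 7.22 against those of replicates 3 and 4 alone. That gap restates the separation on which the group was selected. The calls of the members did not change in either case, where 34.1% to 35.3% of all genes tested were called in either direction.

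Between ECs and MSCs, Nr4a1 was the 1 gene called. Nr4a1, which antigen receptor and growth factor signals induce, ranged from 5.89 to 51.30 RPKM in ECs with a median of 29.0 and from 13.34 to 141.60 RPKM in MSCs with a median of 82.6. The log2 fold change was -1.80 ± 0.52 (edgeR, adjusted p = 0.0085), and of all genes tested 16.6% were called lower and 16.3% higher in ECs. The ranges overlapped. With Flt3+/+ libraries alone the log2 fold change was -1.57 and the call was lost (adjusted p = 0.141). The remaining 9 genes had log2 fold changes from -1.06 (Egr2, SE 0.73, adjusted p = 0.288) to 0.32 (Ier2, SE 0.46, adjusted p = 0.643). None had all EC libraries above all MSC libraries, which 3.19% of all genes had.

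**Figure D3:**
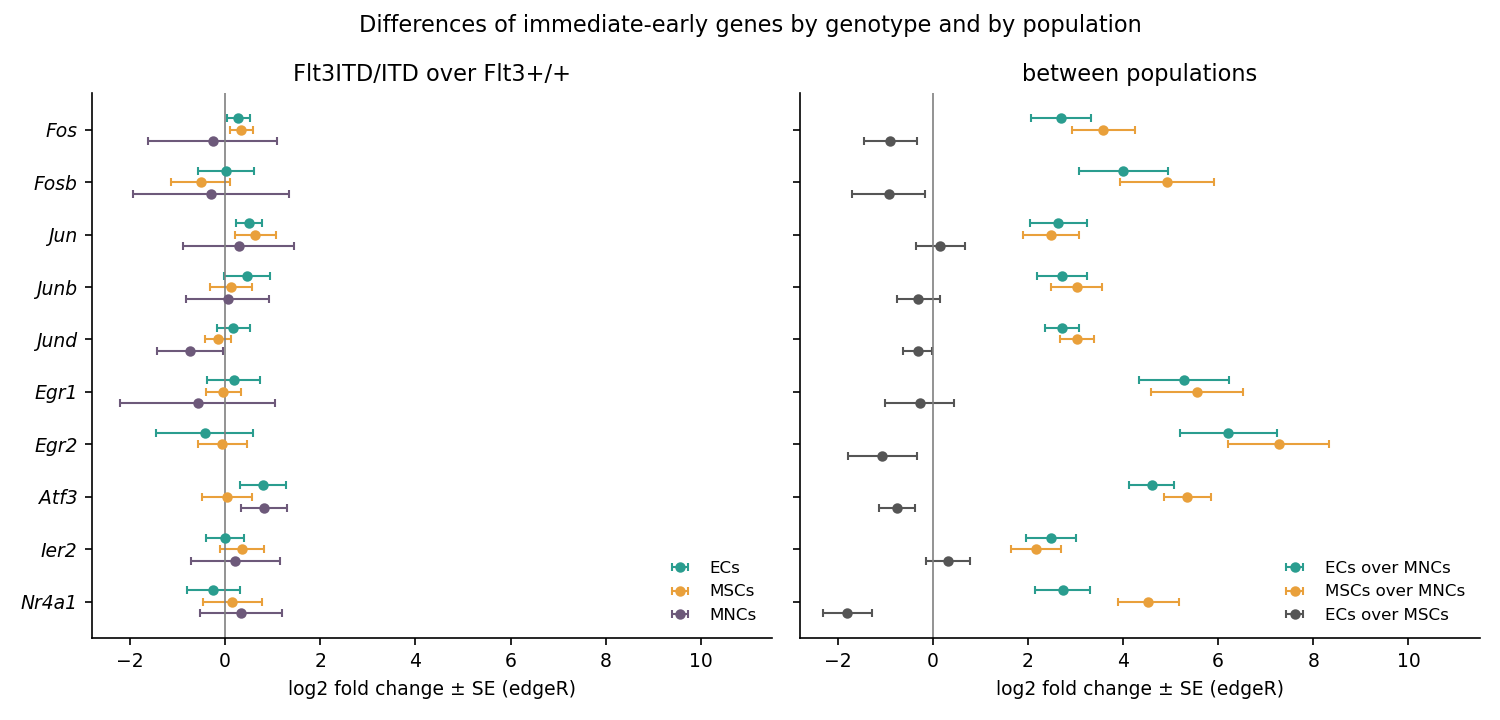
Points are log2 fold changes from edgeR with bars of 1 SE, for Flt3ITD/ITD over Flt3+/+ within each population (left) and between populations (right), 1 row per gene. The left values scatter around 0, with the widest bars in MNCs and no MNC value for Egr2, which did not pass the count filter, while the right values of ECs and MSCs over MNCs all lie above 2.

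Genes that act before, beside or after these 10 were followed as lists, which were also drawn up with earlier results known. Of 19 other immediate-early transcription factors tested, 11 were called higher and 1 lower in ECs than in MNCs. In MSCs against MNCs, 16 were called higher and none lower. Of all genes tested, 23.1% were called higher and 22.0% lower in ECs, and 22.2% and 22.0% in MSCs. Only 15 of these factors passed the count filter in MNCs. Fosl1, Egr3, Nr4a3 and Maff passed it through the sorted populations only, so any call of theirs was fixed by the filter. Nr4a2, a paralog of Nr4a1, averaged 30.5 ± 22.6 RPKM in ECs and 34.7 ± 24.3 in MSCs (SD, n = 10) and 0.289 ± 0.107 in MNCs (SD, n = 8). Maff, a small bZIP protein, averaged 0.0388 ± 0.0383 RPKM in MNCs, against 3.43 ± 3.74 in ECs and 16.6 ± 10.8 in MSCs. Of 30 feedback and signalling genes, which shut the response off or pass it on, 20 were higher and 2 lower in ECs. In MSCs 20 were higher and 1 lower. The same shares of all genes apply, and so does the same limit. In MNCs 26 genes of this list passed the count filter, and Arc, Cyr61 and Ctgf were among those that did not. In ECs 28 passed it and in MSCs 29. Plk2, a stress-responsive kinase, averaged 2.16 ± 1.27 RPKM in MNCs, against 284 ± 71.6 in ECs and 19.8 ± 8.73 in MSCs, and was also called higher in ECs than in MSCs (log2 fold change 3.61 ± 0.29, adjusted p = 3.8e-10). Ptgs2, the inducible cyclooxygenase, went the other way, with 15.8 ± 11.4 RPKM in MSCs and 10 reads in all over the 10 EC libraries. Ptgs2 passed the filter through the other populations only, so any call of it as lower in ECs was fixed by the filter.

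Of 16 kinases and transcription factors upstream, 6 were called higher and 3 lower in ECs than in MNCs, and 2 higher and 4 lower in MSCs than in MNCs, where 23.1% and 22.0% of all genes were called higher and lower in the former comparison and 22.2% and 22.0% in the latter. Crem, a CREB family factor, was higher in both, by 3.62 ± 0.47 and 2.81 ± 0.45 on the log2 scale, and Mkl1, a serum response factor coactivator, lower in both, by -4.57 ± 1.03 and -2.42 ± 0.94. Mkl1 was close to the floor in ECs, at 0.507 ± 0.906 RPKM (SD, n = 10) with no read in 2 libraries, against 11.2 ± 3.56 in MNCs (SD, n = 8). Its fitted fold in ECs therefore depends on the prior count. Of the upstream genes, 15 passed the count filter in ECs. Of 12 AP-1 and ATF partners, 4 were higher and 3 lower in ECs, and 4 higher and 4 lower in MSCs, against the same shares of all genes. Of these partners, 9 passed the count filter in ECs and 9 in MSCs. Batf was lower in both, but 7 of 10 EC and 6 of 10 MSC libraries held no read of it. Batf3 held no read in 9 EC and 6 MSC libraries. Both passed the filter through the MNCs only, so any call of theirs was fixed by the filter. Of 13 heat shock genes, 8 were higher and 1 lower in ECs, and 8 higher and none lower in MSCs, against the same shares. Hspb1 held no read in any MNC library and passed the count filter through the sorted populations only. Hspa1a, the inducible Hsp70, averaged 8.35 ± 14.7 RPKM in MNCs, against 124 ± 66.1 in ECs and 44.7 ± 24.4 in MSCs.

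The MNC libraries divided by replicate number and not by genotype. Fos, the dimer partner of the Jun proteins, was at 322.67 and 238.81 RPKM in Flt3+/+ replicates 1 and 2 and at 316.87 and 141.57 RPKM in the Flt3ITD/ITD libraries of the same numbers. In replicates 3 and 4 it was at 10.38 and 8.06 RPKM in Flt3+/+ and at 15.58 and 4.24 RPKM in Flt3ITD/ITD. The means of the sets were 255 ± 84.7 and 9.57 ± 4.74 RPKM (SD, n = 4 each), a ratio of 26.7, and on log2(RPKM + 1) the difference of 4.65 was the highest of the 13926 genes tested in MNCs. Egr1 ranked next, with a difference of 3.42. It was at 13.19, 18.26, 16.38 and 4.46 RPKM in replicates 1 and 2 of Flt3+/+ and Flt3ITD/ITD, in that order, and at 0.04, 0.59, 0.03 and 0.17 RPKM in replicates 3 and 4. Every library of the first set lay above every library of the second for both genes. The 1 added to the RPKM compresses differences of genes near or below 1 RPKM. By the ratio of means, Egr1 (63.0) and Fosb (79.2) differed more than Fos.

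Fosb was at 9.29, 7.98, 11.14 and 3.27 RPKM in the first set and between 0.04 and 0.19 RPKM in the second, where 21 reads were counted in all. Jun was at 13.42, 13.72, 17.29 and 11.82 RPKM in the first set and at 0.32, 0.25, 3.10 and 1.47 RPKM in the second, so the Flt3ITD/ITD libraries of the second set lay above the Flt3+/+ ones. Junb, which opposes Jun at some promoters, was at 28.87, 22.05, 21.83 and 43.69 RPKM against 8.22, 6.76, 2.43 and 3.55 RPKM. Here the order of the genotypes in the second set was the opposite one. Ier2 was at 26.42, 25.49, 17.01 and 45.37 RPKM in the first set and at 4.12, 2.18, 3.28 and 4.12 RPKM in the second. Nr4a1 was at 3.74, 8.40, 8.63 and 5.93 RPKM against 0.44, 0.98, 1.11 and 1.83 RPKM. The narrowest differences were those of Jund (1.18) and Atf3 (1.07), the latter at 5.63 to 13.11 RPKM in the first set and 1.56 to 5.38 RPKM in the second. Egr2 was not separated, with 27 reads in each set and no value above 0.36 RPKM.

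For 9 of the 9 genes that passed the count filter in MNCs, all 4 libraries of replicates 1 and 2 thus lay above all 4 of replicates 3 and 4. Among all genes tested 6.69% did so and 1.20% lay entirely below. Since this division is what brought the group to notice, the count describes the members and is not evidence about them. The median difference over the 10 members was 2.50 on the log2(RPKM + 1) scale, and 0.10 over all genes tested. The labels number the replicates but do not say what a number stands for.

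**Figure D4:**
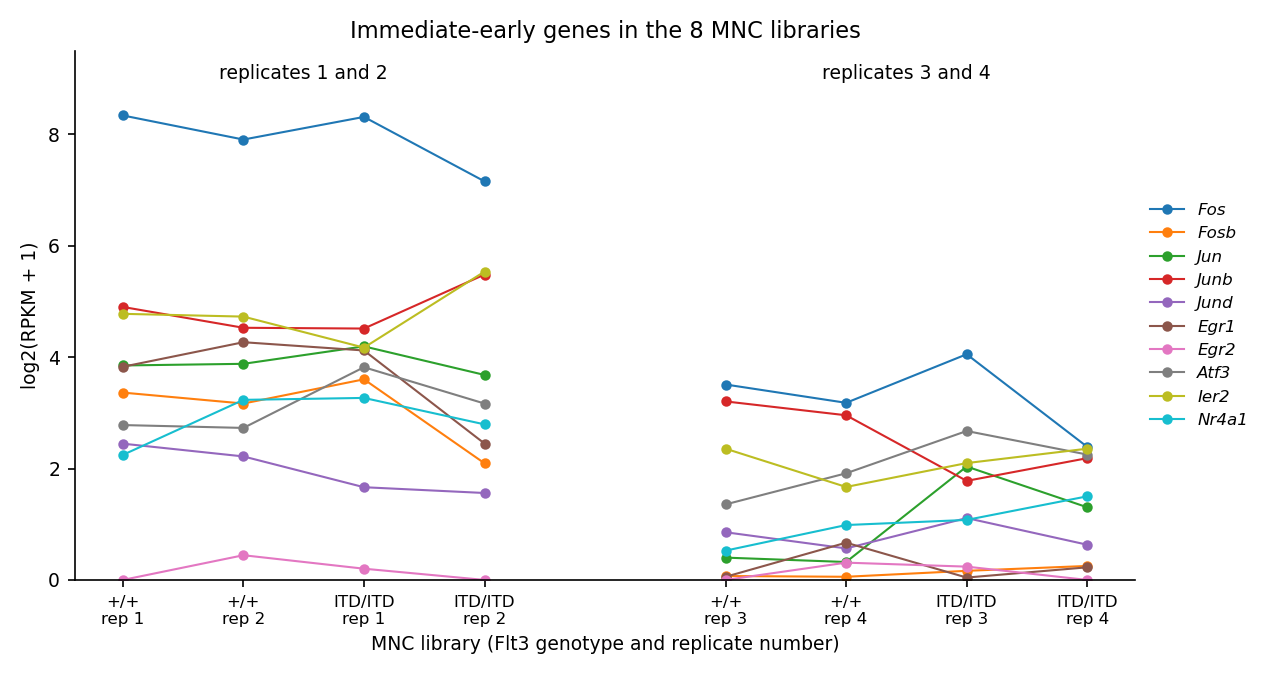
Log2(RPKM + 1) of the 10 genes (colours) in the 8 MNC libraries, replicates 1 and 2 on the left and 3 and 4 on the right. Lines join the points of a gene and have no meaning of order. Fos lies above every other gene in each of the 8 libraries, between 141.57 and 322.67 RPKM on the left and between 4.24 and 15.58 RPKM on the right, and Egr2 stays near 0 throughout.

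Other measures of the MNC libraries were set beside this division. Counts per library ran from 17681544 to 20240743 in replicates 1 and 2 and from 14260910 to 22149240 in replicates 3 and 4. The summed RPKM of 9 neutrophil genes was 161363 to 210848 in the first set and 43789 to 172025 in the second, with the lowest values in Flt3ITD/ITD replicates 3 and 4. The 6 monocyte genes summed to 13006 to 18456 and 15271 to 20674 RPKM, the 6 B cell genes to 163 to 614 and 150 to 489 RPKM, and the 4 erythroid genes to 2.58 to 389 and 41.6 to 1726 RPKM. These ranges overlapped, as did those of 5 T cell genes (16.04 to 48.7 and 5.05 to 45.0 RPKM) and 5 pan-leukocyte genes (3264 to 4330 and 2761 to 3608 RPKM). Single markers whose sets did not overlap numbered 1 of the 5 pan-leukocyte genes and 1 of the 5 T cell genes, and none among the neutrophil, monocyte, B cell and erythroid genes. The part of cell composition in the division was not tested.

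The same division was looked for in the other lists, again as a description. Of 26 feedback and signalling genes tested in MNCs, 18 had all libraries of replicates 1 and 2 above all of replicates 3 and 4, with a median difference of 1.27 on log2(RPKM + 1). Among all genes tested in MNCs 6.69% did so, the share to set beside the count of each list. Dusp1, the phosphatase that inactivates MAP kinases, averaged 45.2 ± 8.64 and 3.94 ± 2.35 RPKM in the first and second set (SD, n = 4 each). Zfp36, which encodes tristetraprolin and destabilizes immediate-early transcripts, averaged 282 ± 64.4 and 35.2 ± 8.31 RPKM, and it was also the gene most like the mean of the members over the 8 MNC libraries (r = 0.98, of 12027 genes), followed by Tmem206 (r = 0.98) and Malat1 (r = 0.98). These r values mostly restate the division between the sets, on which the group was selected. The highest of so many values is also high by selection alone. Ier3 averaged 51.1 ± 9.23 and 7.17 ± 3.99 RPKM, and Trib1 20.3 ± 2.90 and 2.04 ± 1.09. Of 15 other immediate-early transcription factors, 6 did not overlap, among them Klf2 (29.0 ± 11.01 and 7.49 ± 0.855 RPKM), Klf4 (40.6 ± 12.4 and 14.4 ± 11.4 RPKM) and Cebpd (10.5 ± 0.995 and 3.68 ± 1.04 RPKM).

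The upstream regulators divided less, with 5 of 16 not overlapping, among them Mapk3 (ERK1, 54.5 ± 5.47 and 27.6 ± 1.84 RPKM) and Srf, which encodes serum response factor (2.70 ± 0.531 and 1.19 ± 0.405 RPKM), and a median difference of 0.23. Among 12 AP-1 and ATF partners 1, Mafg, did not overlap (18.9 ± 4.34 and 9.83 ± 3.22 RPKM), and none of 12 heat shock genes did, counts that lie near the 6.69% of all genes tested. The heat shock genes had a median difference of -0.09, and Hspa1a averaged 16.03 ± 18.6 and 0.680 ± 0.753 RPKM. No tested gene of these lists lay entirely below. Arc, a feedback and signalling gene that did not pass the count filter in MNCs, did so, with 4 reads in the first set and 77 in the second.

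**Figure D5:**
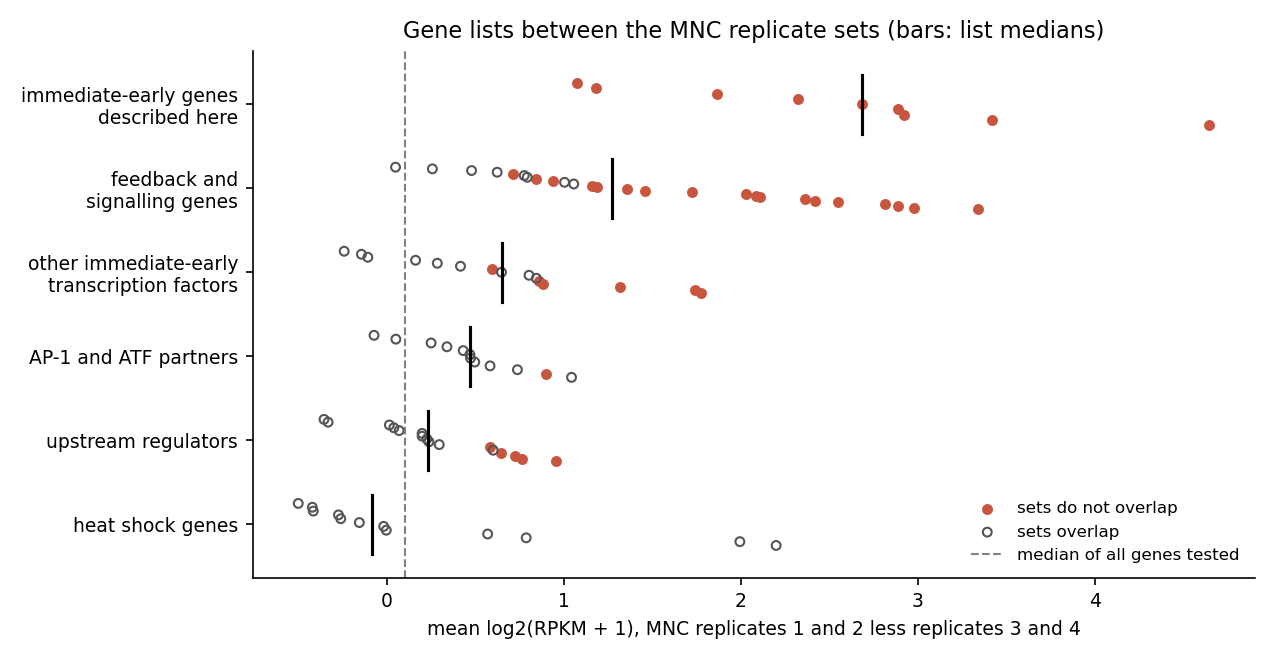
Each point is 1 gene, at its mean log2(RPKM + 1) in MNC replicates 1 and 2 less that in replicates 3 and 4, in rows by list, with black bars for list medians and a dashed line for the median of all genes tested (0.10). Filled points are genes whose 2 sets do not overlap. The 9 tested members (top row, median 2.68) and the feedback genes lie farthest to the right, and the heat shock genes hold no filled point.

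Between the genotypes, no immediate-early gene was called in any of the 3 populations. This comparison asks whether the leukemic mutation alters these transcripts in the niche cells or in the blood cells. In ECs 0.00810% of 12351 genes tested were called in either direction, in MSCs 0.0295% of 13574 and in MNCs 0.0144% of 13926. Nor did any member tested pass an unadjusted p of 0.05 in edgeR's quasi-likelihood test, as 4.99%, 4.24% and 10.4% of all genes did in ECs, MSCs and MNCs. In MNCs Egr2 was not tested. The gap between replicate sets, on which the group was selected, lies within each genotype there and enters the error of these tests. So the lack of a pass in MNCs says little about genotype. DESeq2 called none of them either, where it called 1.54%, 0.931% and 1.44% of all genes in ECs, MSCs and MNCs, nor did edgeR's exact test, which called 0.130%, 0.140% and 1.05%.

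In ECs, Atf3 and Jun came nearest. Atf3 averaged 112 ± 74.6 RPKM in Flt3+/+ and 188 ± 46.2 in Flt3ITD/ITD (SD, n = 5 each, exact two-sided permutation p = 0.0714), a log2 fold change of 0.79 ± 0.49 (adjusted p = 0.9998). Jun averaged 42.3 ± 15.2 and 59.0 ± 10.6 RPKM (SD, n = 5 each, exact permutation p = 0.0873), a log2 fold change of 0.50 ± 0.27. The ranges of the genotypes overlapped for both genes. Fos ranged from 586.22 to 1146.07 RPKM in Flt3+/+ and from 613.09 to 1401.47 RPKM in Flt3ITD/ITD. Egr1 averaged 256 ± 169 and 285 ± 147 RPKM. The smallest p that 5 against 5 libraries can give is 0.00794, and the 30 permutation tests, 10 genes in each of 3 populations, ran from 0.0714 to 1 before any adjustment.

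In MSCs the log2 fold changes lay between -0.51 ± 0.62 (Fosb) and 0.63 ± 0.43 (Jun), with adjusted p of 0.9994 for all 10 genes in edgeR. Jun averaged 31.1 ± 14.3 RPKM in Flt3+/+ and 46.4 ± 29.3 in Flt3ITD/ITD (SD, n = 5 each, exact permutation p = 0.373), and the highest Flt3ITD/ITD library, at 98.31 RPKM, lay apart from the other 4. In MNCs the errors were wider, and each genotype held libraries of both sets. Fos averaged 145 ± 160 RPKM in Flt3+/+ and 120 ± 146 in Flt3ITD/ITD (SD, n = 4 each, exact permutation p = 0.8), a log2 fold change of -0.27 ± 1.35. Atf3 had the smallest p there, with 3.96 ± 2.13 and 7.56 ± 4.09 RPKM (exact permutation p = 0.171, where 0.0286 is the smallest possible with 4 against 4) and a log2 fold change of 0.83 ± 0.48 (adjusted p = 0.564). With a term for the replicate set in the edgeR model none of the 9 genes tested was called, and Atf3 had an unadjusted p of 0.0338 (log2 fold change 0.79, adjusted p = 0.384), Jun a log2 fold change of 1.22 (adjusted p = 0.429) and Egr1 one of -1.14 (adjusted p = 0.570).

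Within replicates 1 and 2 of MNCs, the mean log2(RPKM + 1) of Flt3ITD/ITD was above that of Flt3+/+ for 5 genes and below for 5, and within replicates 3 and 4 above for 6 and below for 4. In both sets it was above for 4 genes and below for 3. No test of these differences of 2 against 2 libraries was made. The genotype effect was not shown to differ between populations for any of the genes either, the smallest unadjusted p of the 30 interaction tests being 0.175 (Jund, ECs less MNCs, log2 difference 0.90, adjusted p = 0.838). None of the other listed genes was called between genotypes in any population.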

How the data were processed

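RNA was sequenced from sorted ECs and MSCs and from MNCs of Flt3+/+ and Flt3ITD/ITD mice after SMARTer amplification. The authors aligned single-end reads with Bowtie to the mm10 UCSC transcripts, dropped reads that mapped to more than 1 place and quantified genes with RSEM at default settings, in versions not given in the sources used here. Libraries were grouped by their labelled population and genotype. The authors deposited estimated counts as whole numbers, which were used as counts, and the RPKM values of the same libraries, which correct for transcript length and depth.

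The counts were tested with edgeR 4.0.16 (R 4.3.3; TMM, filterByExpr, quasi-likelihood test, Benjamini-Hochberg over all genes tested). Calls needed an adjusted p under 0.1 and mean RPKM values whose log2 ratio was 1 or more in size. These thresholds are those of the study, which took a gene from either DESeq2 or edgeR, whereas here edgeR's quasi-likelihood test alone made the calls. Genotypes were fitted within a population, and populations in 1 model of 28 libraries with genotypes weighted equally. SEs were derived from the log2 fold change and the F statistic. RPKM were described as log2(RPKM + 1), and genotype means were compared by exact permutation. The test script was tested on simulated data. DESeq2 1.42.0, edgeR's exact test, RLE scaling, no count filter, no fold rule, a threshold of 0.05, a replicate block, a term for the MNC set, single genotypes and single left-out libraries were tried as alternatives.

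The 10 members, the lists and the MNC replicate sets were chosen with earlier results of these data known. The members are described in each comparison, by name or by their range and count. Of other lists, genes were named from the 4 with the largest size of log2 fold change among those called, or of log2 difference between the MNC sets, and in each population the 3 genes most like the mean of the members. Depth was 6377013 to 33880743 counts per library, and counts from amplified cDNA of 100 or 200 cells carry more than counting error.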

Additional observations from a re-analysis of the deposited data

Results flagged for a closer look

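Among the groups of 4 or 5 libraries searched, 10 genes in each of 6 groups, 1 value lay apart from the rest of its group by Dixon's criterion. Jun in Flt3ITD/ITD MSC replicate 1 was at 98.31 RPKM, where the next value of the group was 37.43 RPKM, a gap of 0.856 of the range of the 5 libraries. Chance alone marks about 1 in 20 groups, so 1 of 60 is no more than it gives. The same library also held the highest Fos (2380.90 RPKM), Junb (201.45 RPKM) and Ier2 (170.89 RPKM) of the 10 MSC libraries.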

How the results depend on the processing

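The counts of members called kept to 10, 10, 1 and 0 in the population and genotype comparisons under every alternative tried, with 1 exception. With Flt3+/+ libraries alone, 0 members were called between ECs and MSCs. The cause was not tested. The counts of 10 include Egr2, which in the main setting passed the count filter through the sorted populations only. Its call was fixed in advance and adds nothing to the steadiness of these counts. The median difference of 2.50 between the MNC replicate sets was 2.78 with a pseudocount of 0.1, 2.73 on log2 CPM, and 2.28 to 2.61 over the single left-out libraries, 2.28 being without Flt3ITD/ITD MNC replicate 2. The replicate numbers were not taken to pair the libraries, for which every pair would have had to correlate above 0.1. Deviations of same-numbered libraries of the 2 genotypes correlated at -0.0032 to 0.0425 in ECs, 0.0357 to 0.089 in MSCs and -0.1364 to 0.0769 in MNCs, and 5 of 10, 8 of 10 and 2 of 8 libraries correlated best with their own number, which is a hint from the data and not from the design. With the replicate block 0 members were called between genotypes, and 10, 10 and 1 for ECs over MNCs, MSCs over MNCs and ECs over MSCs. Of all genes, 0 were called between genotypes in each population under the block, where 1, 4 and 2 were called without it in ECs, MSCs and MNCs. DESeq2 called 362, 197 and 327 genes, edgeR's exact test 16, 19 and 146, and edgeR without a count filter 0, 2 and 3. A threshold of 0.05 called 0, 2 and 0, and over the single left-out libraries 0 were called in ECs, 0 to 2 in MSCs and 0 to 1 in MNCs.

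Uncalled genotype log2 fold changes near 0 changed sign in 25 instances. Under the replicate block they were -0.13 (Atf3, MSCs), 0.043 (Egr1, MSCs), -0.014 (Junb, MSCs), -0.66 (Junb, MNCs) and -0.0034 (Ier2, MNCs). With a term for the MNC set they were 0.057 (Fosb) and -0.61 (Junb), and Ier2 in ECs was -0.00029 by DESeq2 and -0.00023 with RLE scaling. Over single left-out libraries the ranges in ECs were -0.10 to 0.39 (Egr1), -0.23 to 0.34 (Fosb) and -0.20 to 0.25 (Ier2). In MSCs they were -0.21 to 0.31 (Atf3), -0.21 to 0.23 (Egr1), -0.29 to 0.20 (Egr2), -0.26 to 0.56 (Ier2), -0.10 to 0.37 (Junb) and -0.12 to 0.52 (Nr4a1). In MNCs they were -2.39 to 0.18 (Egr1), -1.47 to 0.50 (Fos), -2.10 to 0.41 (Fosb), -0.87 to 0.65 (Ier2), -0.38 to 0.83 (Jun), -0.86 to 0.47 (Junb) and -0.28 to 1.23 (Nr4a1). None of these values passed the test. Egr2 in MNCs rested on 27 reads in each replicate set.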
